A study of Arabidopsis thaliana with 3 samples.

Results

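The genes described here are 5 metallothionein genes (MT1A, MT1C, MT2A, MT2B and MT3), 3 heavy metal ATPase genes (HMA2, HMA4 and HMA5) and the phytochelatin synthase gene PCS1 of Arabidopsis thaliana. They were chosen by name for their part in metal homeostasis, with earlier results of these data known. All 9 were found among the 33446 genes of a root RNA-seq table. The RNA came from roots of Col-0 plants aged 14 days, grown upright on agar under long days. All plants expressed INTACT, a tagging construct for nuclei that the constitutive 35S promoter drives. Plants without the construct, leaves and metal treatments were not analysed here. The 3 libraries of this single condition are given as 1 column of RPKM, a read count scaled by gene length and library size. Each gene thus has 1 value without an SD, and the spread between libraries is unknown.

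Metallothioneins are small cysteine-rich proteins that bind metal ions, such as copper and zinc, through the sulphur atoms of their cysteines. Phytochelatin synthase joins units of glutathione into phytochelatins, peptides that bind cadmium, arsenic and zinc for storage in the vacuole. Heavy metal ATPases use ATP to carry metal ions across membranes. In roots, HMA2 and HMA4 load zinc into the xylem for transport to the shoot, and HMA5 moves copper out of root cells.

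The coding sequences of the metallothioneins are short enough to be shown whole, and they carry the feature that defines the family. They are printed from start to stop codon, from the RefSeq annotation of TAIR10.1, in the direction of transcription, with the cysteine codons TGT and TGC in capitals. MT1C is on the plus strand of chromosome 1, MT2A and MT3 are on the minus strand of chromosome 3, and MT2B is on the minus strand of chromosome 5.
MT1C: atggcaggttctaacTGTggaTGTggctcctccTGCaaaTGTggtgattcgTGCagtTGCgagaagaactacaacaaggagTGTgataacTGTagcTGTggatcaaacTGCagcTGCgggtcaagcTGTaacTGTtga
MT2A: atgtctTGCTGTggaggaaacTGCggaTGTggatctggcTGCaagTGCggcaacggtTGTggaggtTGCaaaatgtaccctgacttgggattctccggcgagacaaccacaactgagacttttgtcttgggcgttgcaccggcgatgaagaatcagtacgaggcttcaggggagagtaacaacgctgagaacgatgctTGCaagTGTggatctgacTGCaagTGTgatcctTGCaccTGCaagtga
MT2B: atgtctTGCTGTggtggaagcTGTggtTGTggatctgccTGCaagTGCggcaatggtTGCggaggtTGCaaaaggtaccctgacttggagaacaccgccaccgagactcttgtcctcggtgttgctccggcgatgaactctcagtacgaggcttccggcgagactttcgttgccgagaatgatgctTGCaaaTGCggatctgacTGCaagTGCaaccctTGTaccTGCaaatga
MT3: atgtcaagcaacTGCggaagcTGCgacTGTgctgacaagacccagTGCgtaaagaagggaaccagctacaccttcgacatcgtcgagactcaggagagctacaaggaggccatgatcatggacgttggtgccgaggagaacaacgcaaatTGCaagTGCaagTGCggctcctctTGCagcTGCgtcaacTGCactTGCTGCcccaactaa

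In all 5 metallothionein genes the cysteine codons stood in 2 groups with a stretch free of them in between. MT1A and MT1C each had 13 cysteine codons of 45, or 28.9%, the highest share among 27414 protein-coding nuclear genes, where the median was 1.68%. The 2 groups held 6 and 7 cysteine codons and lay 7 codons apart. MT2A had 14 cysteine codons of 81 and MT2B had 14 of 77, in both cases 8 at the start and 6 at the end, with 43 codons between the groups in MT2A and 39 in MT2B. MT3 was built the other way round, with 4 cysteine codons at the start and 8 at the end, and 12 of 69 in all. Its gap was 34 codons. The arrangement of a cysteine codon, any codon and a second cysteine codon occurred 6 times in MT1A and MT1C and 5 times in each of MT2A, MT2B and MT3. The coding sequences of MT2A and MT2B were identical at 83.8% of the aligned bases, those of MT2A and MT3 at 64.8%.

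**Figure D1:**
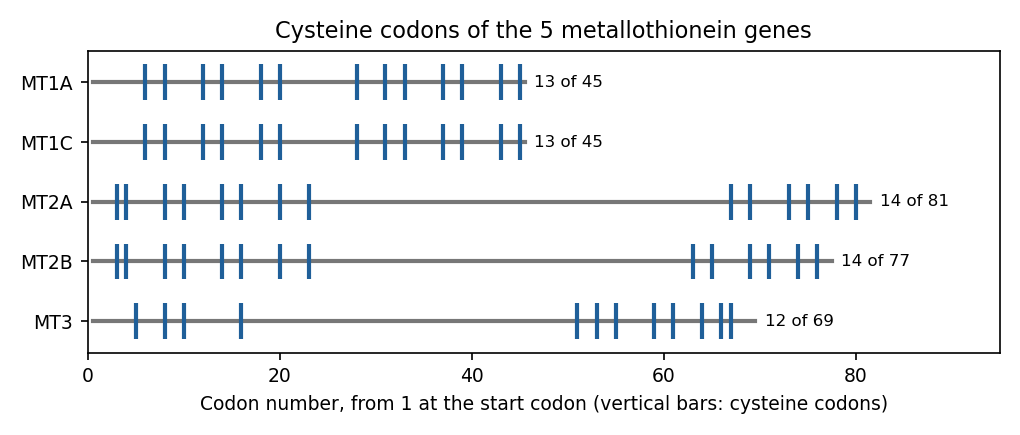
Positions of cysteine codons along the coding sequences of the 5 metallothionein genes. The horizontal axis is the codon number counted from the start codon, each grey line is a coding sequence without its stop codon, and each vertical bar is a cysteine codon. MT1A and MT1C have the same 13 positions, and the long stretch without a cysteine codon is seen in MT2A, MT2B and MT3.

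Of the 5 metallothioneins, 4 were the highest of the 9 genes in roots. MT1C was listed at 1177 RPKM, MT2B at 279 RPKM, MT3 at 127 RPKM and MT2A at 92.1 RPKM. The fifth, MT1A, was listed at exactly 0. Below the metallothioneins with a value came PCS1 with 38.2 RPKM, HMA4 with 34.4 RPKM, HMA5 with 12.7 RPKM and HMA2 with 8.15 RPKM. The paper's threshold for an expressed gene, RPKM > 1, was passed by 8 of the 9 genes, against 56.0% of all 33446 listed genes and 68.3% of 26261 protein-coding genes. The median of the 9 genes was 38.2 RPKM, against 2.21 RPKM over all listed genes and 4.83 RPKM over protein-coding genes. No test was made of these differences, since the genes were chosen as a set with results of these data known.

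**Figure D2:**
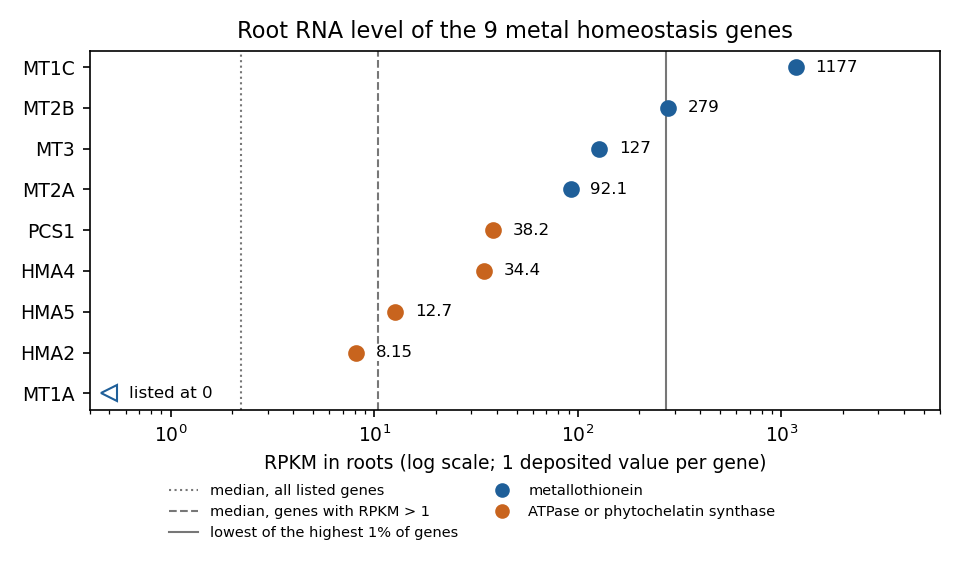
RPKM of the 9 genes in roots, on a logarithmic axis, with 1 deposited value per gene and therefore no error bars. Metallothioneins are blue, ATPases and phytochelatin synthase are orange, and the open triangle is a gene listed at 0. The vertical lines mark the median of all listed genes (2.21 RPKM), the median of genes with RPKM > 1 (10.5 RPKM) and the lowest value among the highest 1% of genes (271 RPKM). Only MT1C and MT2B lie to the right of the last line.

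The precision of these values was judged from the reads behind them. The spacing of the low RPKM values corresponded to about 118000000 counted reads, and the annotated exon lengths then gave, as rounded estimates, 3085 reads for HMA2, the fewest of the 8 genes with a value, and 80127 reads for MT1C, the most. Counting errors ranged upwards from 0.353% for MT1C to 1.80% for HMA2. The closest neighbours in the order were PCS1 and HMA4, with a ratio of 1.11 (95% counting interval 1.08 to 1.14), and MT3 and MT2A, with a ratio of 1.38 (1.35 to 1.42). The intervals of all 7 neighbouring pairs lay above 1. They cover counting error only and assume that the column came from a single set of counts, so whether the order within these pairs holds between libraries was not tested.

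MT1C (AT1G07610) lies on chromosome 1 of TAIR10.1 from 2341447 to 2342148. At 1177 RPKM it ranked 14 of 33446 genes. It alone held 0.193% of the summed RPKM of all genes, and 70.3% of the sum of the 5 metallothioneins. That sum counts MT1A at its listed 0, which may not be its RNA level. In plants, type 1 metallothioneins are best known from roots and the vascular tissue. MT1C was 4.22 times as high as MT2B (95% counting interval 4.15 to 4.29) and 12.8 times as high as MT2A (12.5 to 13.0). No window of 61 bases, the length of the reads, in its annotated transcript had a second exact match in the genome or in the transcript of another gene. Its exons overlapped no other listed gene.

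MT1A (AT1G07600) lies 2125 bp from MT1C on the same chromosome, from 2338904 to 2339321 on the minus strand, and is the closest relative of MT1C. The first 30 bases of both coding sequences are shown to give the likeness of the pair.
MT1A: atggcagattctaacTGTggaTGTggctcc
MT1C: atggcaggttctaacTGTggaTGTggctcc
Counted from the first base of the start codon, with the base of MT1A first, the stretch differs by A8G. Over the whole coding sequence the genes differed at 7 of 138 bases, and the cysteine codons had the same positions. Of the 78 windows of 61 bases in the MT1A transcript, 0 were shared with MT1C and 26 (33.3%) were shared with MT1B (AT5G56795), another type 1 gene, on chromosome 5.

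The value of 0 for MT1A stood beside an unusual position. The annotation of MT1A consists of its 138 coding bases in 2 exons, and 100% of them lie in exons of AT1G07590, a gene on the same strand from 2336477 to 2339391. AT1G07590 encodes a protein of the tetratricopeptide repeat-like superfamily. Its coding part runs from 2336649 to 2338481, so the bases of MT1A belong to the 5′ untranslated part of AT1G07590. AT1G07590 was listed at 555 RPKM, rank 88 of all genes and second to MT1C when set beside the 9 genes. The counting program was HTSeq, which in its usual modes leaves out a read that fits 2 genes equally well, but the mode the authors used is not given in the sources used here. At the annotated length, 3 reads would have given MT1A 0.185 RPKM. How many reads of MT1A RNA were left out or were counted for AT1G07590 was not tested, and the 0 is given as a listed value rather than as a level of MT1A RNA.

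**Figure D3:**
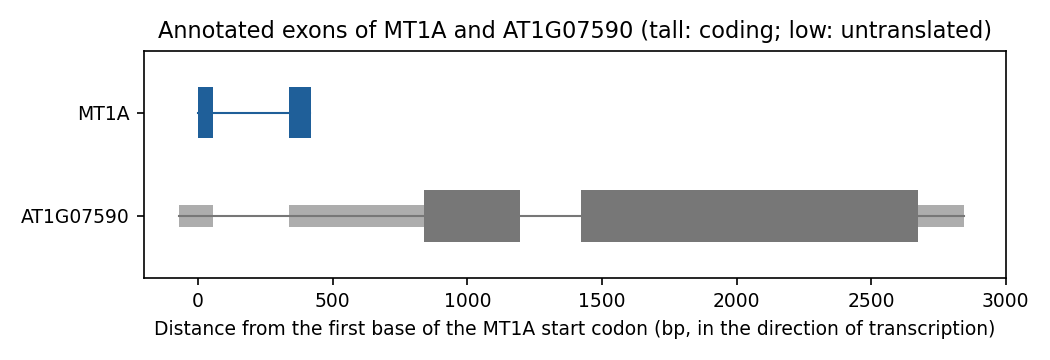
Annotated exons of MT1A (top) and AT1G07590 (bottom), drawn to scale. The horizontal axis is the distance in bp from the first base of the MT1A start codon in the direction of transcription, tall boxes are coding, low boxes are untranslated and lines are introns. Both exons of MT1A lie within exons of AT1G07590, ahead of its coding part.

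The type 2 metallothioneins differed from each other by more than their counting error. MT2B (AT5G02380, chromosome 5 from 506498 to 507244) was listed at 279 RPKM and ranked 319, within the highest 1% of genes. MT2A (AT3G09390, chromosome 3 from 2889406 to 2890574) was listed at 92.1 RPKM and ranked 1278. MT2B was thus 3.03 times as high as MT2A (95% counting interval 2.96 to 3.10). Both encode metallothioneins that chelate copper. In spite of their likeness, no window of 61 bases of either gene had a second exact match, and neither overlapped another listed gene. MT2A has 2 annotated transcripts of 808 and 963 bp, and the length the authors used for its RPKM is not given in the sources used here.

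MT3 (AT3G15353, chromosome 3 from 5180642 to 5181586) was listed at 127 RPKM and ranked 908. It encodes the type 3 metallothionein, which is best known from leaves and ripening fruits. The level of MT3 in roots lay between those of MT2B and MT2A. Its exons shared 24 bp with COX17 (AT3G15352), a gene on the opposite strand for a mitochondrial copper chaperone, listed at 27.1 RPKM. They also shared 70 bp with the noncoding gene AT3G03105, which was matched to no listed name. The use of strand in the counting is not stated in the sources used here, and the part of reads from these shared bases in the value of MT3 was not tested.

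The heavy metal ATPases are shown by the stretch around their codons for cysteine, proline and cysteine, a motif within the membrane that the metal passes during transport. Each stretch has 63 bases of coding sequence, with the 3 codons in capitals, starting at base 1012 of the HMA2 coding sequence, 1042 of HMA4 and 1822 of HMA5. HMA2 is on chromosome 4, HMA4 on chromosome 2 and HMA5 on chromosome 1.
HMA2: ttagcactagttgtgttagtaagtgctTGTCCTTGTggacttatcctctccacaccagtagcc
HMA4: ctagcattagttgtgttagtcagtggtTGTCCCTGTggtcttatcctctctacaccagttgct
HMA5: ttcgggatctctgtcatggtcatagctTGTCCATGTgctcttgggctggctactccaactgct
HMA2 and HMA4, the zinc pumps, were identical at 54 of these 63 bases, whereas HMA5, the copper pump, was identical to HMA2 at 36 and to HMA4 at 39. Over the aligned coding sequences the identity was 79.4% for HMA2 and HMA4, 57.0% for HMA2 and HMA5 and 58.8% for HMA4 and HMA5. The zinc pumps were also rich in cysteine codons, with 58 of 1172 in HMA4 and 33 of 951 in HMA2, against 13 of 995 in HMA5. Cysteine codons stood directly side by side 14 times in HMA4, 7 times in HMA2 and 1 time in HMA5.

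HMA4 (AT2G19110, from 8278789 to 8286561 on the plus strand) had the highest RNA level of the 3 ATPases, with 34.4 RPKM and rank 3504. HMA2 (AT4G30110, from 14720062 to 14725311 on the minus strand) had the lowest, with 8.15 RPKM and rank 10796. HMA4 was therefore 4.22 times as high as its close relative HMA2 (95% counting interval 4.06 to 4.38). HMA5 (AT1G63440, from 23527570 to 23531226 on the plus strand) lay between them at 12.7 RPKM, rank 8294. All 3 passed the RPKM threshold, as did 68.3% of protein-coding and 56.0% of all listed genes. HMA2 lay above the median of all listed genes but below the 10.5 RPKM median of the genes that passed the threshold. No window of 61 bases in the 3 ATPase genes had a second exact match, and none of the 3 overlapped another listed gene.

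PCS1 (AT5G44070, chromosome 5 from 17734706 to 17737859 on the plus strand) was listed at 38.2 RPKM and ranked 3156. Its row was found under ARA8, a synonym that belongs to no other gene. The RefSeq symbol of the gene, CAD1, is shared by 3 genes, and the row listed as CAD1, with 21.4 RPKM, was not used. The coding sequence of PCS1 had 17 cysteine codons of 485. Its RNA level lay below the 4 metallothioneins with a value and above all 3 ATPases.

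The other genes of metal homeostasis were taken from 6 lists of 58 genes, of which 51 had a row under a name that belonged to a single gene. Of these 51 genes, 39 (76.5%) had RPKM > 1, against 68.3% of protein-coding and 56.0% of all listed genes, and their median was 12.4 RPKM. None was above MT1C, 1 was above MT2B, 3 were above MT3 and 4 were above MT2A.

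Among the remaining metallothioneins, MT1B was listed at 16.2 RPKM, far below MT1C. The seed metallothioneins MT4A and MT4B were listed at 0 and 0.139 RPKM. Among the other heavy metal ATPases, HMA1, a pump of the chloroplast envelope, was listed at 12.7 RPKM, a value close to that of HMA5. HMA3, a vacuolar pump that is known to be nonfunctional in Col-0, was listed at 0.757 RPKM, and the gene known as PAA2 or HMA8, a copper pump of the thylakoid, at 0.818 RPKM.

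In the phytochelatin list, GSH2, which makes the glutathione that PCS1 uses, was listed at 55.8 RPKM. ABCC1 and ABCC2, which carry phytochelatins into the vacuole, were listed at 29.1 and 14.8 RPKM. The second phytochelatin synthase gene, PCS2, was listed at 1.04 RPKM, about 208 estimated reads, against 38.2 RPKM for PCS1. All 4 of the genes with a usable row passed the RPKM threshold, as did 68.3% of protein-coding genes, and their median was 21.9 RPKM.

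Of 14 copper genes, 12 had RPKM > 1, against 68.3% of protein-coding genes, and the median was 25.2 RPKM. The copper chaperone ATX1 led them with 155 RPKM, close to the copper exporter of the vacuole COPT5 with 152 RPKM. The copper importer COPT2 was listed at 105 RPKM, and COPT1 at 13.9 RPKM. The copper reductase genes FRO4 and FRO5 were listed at 36.1 and 54.3 RPKM; they are close copies of each other, and the share of reads that could be placed in either was not tested. SPL7, the regulator of the response to low copper, was listed at 7.65 RPKM, and CITF1, another transcription factor of copper uptake, at 27.1 RPKM. ATX1, COPT5 and COPT2 all lay above MT2A, and ATX1 and COPT5 also lay above MT3.

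Of 23 zinc and manganese genes, 17 had RPKM > 1 and 2 were listed at 0, against 68.3% of protein-coding genes above the threshold and 10.3% at 0. PCR2, which exports zinc and cadmium from root cells, was listed at 363 RPKM and was the only gene of the 6 lists above MT2B. Its neighbour PCR1 was listed at 0.0221 RPKM, below the 0.0271 RPKM that 3 reads would give at its annotated length. The zinc transporter genes of the ZIP family with a usable row and RPKM > 1 ran from ZIP9 with 2.64 RPKM to IRT3 with 47.6 RPKM. Below the threshold lay ZIP12 with 0.664 RPKM and ZIP8 with 0.0236 RPKM, and ZIP7 and ZIP10 were listed at 0. MTP1, which stores zinc in the vacuole, was listed at 32.5 RPKM, close to the xylem loader HMA4 at 34.4 RPKM. Of the regulators of zinc deficiency, bZIP19 was listed at 36.2 RPKM and bZIP23 at 5.24 RPKM. The nicotianamine synthases, whose product binds zinc, iron and copper, ran from 2.35 RPKM for NAS3 to 42.2 RPKM for NAS1, and all 4 passed the threshold that 68.3% of protein-coding genes passed.

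**Figure D4:**
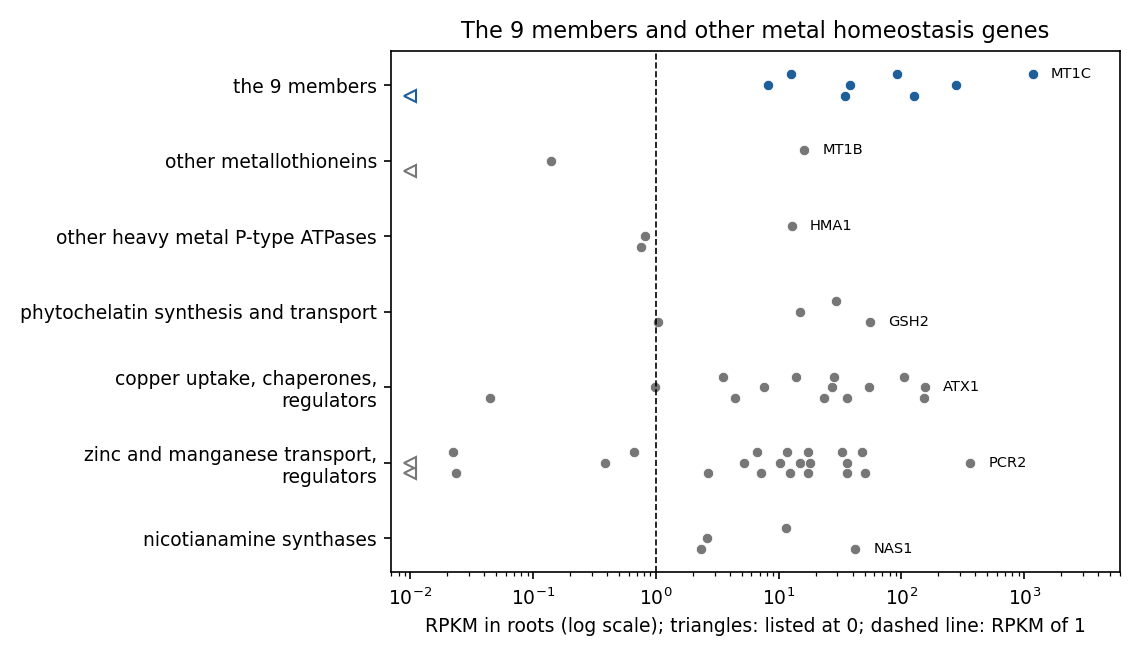
RPKM in roots of the 9 genes (top row, blue) and of the 51 other metal homeostasis genes with a usable row, by list (grey), on a logarithmic axis. Each point is 1 gene with 1 deposited value, small vertical offsets only separate the points, open triangles are genes listed at 0, the dashed line is an RPKM of 1, and the highest gene of each list is named. MT1C lies to the right of every other point, and PCR2 is the only gene outside the 9 to the right of MT2B.

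The tissue label was set against fixed marker genes. All 10 root markers had RPKM > 1, against 68.3% of protein-coding genes. Their median was 24.5 RPKM, and CASP1 of the endodermis was listed at 203 RPKM. Of 8 leaf markers, 4 had RPKM > 1, with a median of 1.44 RPKM and the highest value, 14.1 RPKM, for RBCS1A. The share of leaf marker reads that could also be placed in other genes was not tested. None of 5 seed markers was above 0.0600 RPKM, and the seed metallothioneins MT4A and MT4B were low in the same libraries.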

How the data were processed

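RNA of 14-day-old roots was sequenced by the authors as 3 libraries of single-end reads of 61 bases. The authors aligned the reads to TAIR10, with STAR per the submitters' processing notes (the paper's methods name TopHat2 after the leaf RNA-seq, without saying whether root reads are meant), counted reads per gene with HTSeq and computed RPKM with edgeR. The deposited RPKM values form 1 column, and software versions, annotation release, strand setting and the combination of libraries are not given in the sources used here.

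Names were matched to TAIR10.1 (RefSeq) by locus, symbol or synonym, only where a name belonged to 1 gene. Of 33446 names, 32382 (96.8%) were matched, and 410 names were shared by several genes. Of the 9 genes, 6 matched by symbol and 3 by synonym (MT1A as LSR4, MT2A as ATMT-K and PCS1 as ARA8). The authors' annotation may have held other gene models than TAIR10.1.

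The library size was read from the spacing of 4320 low values. It was the smallest size that brought nearly as many of these same values close to whole reads as the best size did, and with it 64.9% fell within 0.05 of one, so the share is a description of the fit. Tested on simulated data, the method recovered the size from a single set of counts but not from a mean of libraries of unequal size. Read estimates and intervals thus assume that the column came from a single set of counts, pooled or from 1 library. The rest of these 4320 values lay 0.05 or more from a whole read. Apart from them, CRA1 at 0.00166 RPKM rounded to 0 estimated reads, where 3 reads would give 0.0136 RPKM. The reason was not tested. Intervals are exact Poisson intervals or, for ratios, log-normal ones, at 95%.

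The named genes are the 9 genes, 6 lists of metal genes, marker genes and genes overlapping or sharing sequence with a member. COX17, AT3G03105 and AT1G07590 entered by overlap. The members and lists were chosen with earlier results of these data known. Alternatives tried were 0.5 and 2 RPKM as the threshold, only protein-coding or only nuclear genes, genes above 0 or with at least 300 bp of exon, leaving out the highest 1%, TPM, pseudocounts and other gene lengths. Python 3.11.15, numpy 2.4.6, scipy 1.17.1, Biopython 1.88 and matplotlib 3.10.9 were used.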

Additional observations from a re-analysis of the deposited data

How the results depend on the processing

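No paired analysis was possible because 1 column stands for all libraries and no second condition was sampled. Leaving out a library was not possible either. At thresholds of 0.5 and 2 RPKM, 8 of the 9 genes were still above the threshold, against 59.6% and 50.9% of all listed genes. At RPKM > 1 the share was 68.3% of protein-coding and 56.6% of nuclear genes. With MT1A counted at its listed 0, the 5 metallothioneins held 0.275% of the summed RPKM. Their share was 0.287% of the sum of protein-coding genes, 0.285% of that of nuclear genes and 0.394% without the highest 1% of the other genes. The median of the 9 genes was 62.7 TPM after rescaling to a fixed sum. The difference of median log2(RPKM + pseudocount) between the 9 genes and all genes was 3.61 with a pseudocount of 1, 4.05 with 0.1, 4.10 with 0.01, and 3.27 among genes above 0. The largest shift of a percentile was that of HMA2, at 67.7% of all listed genes and 59.1% of genes above 0. The longest annotated transcript moved no member by more than 0.926%, and it differed from the full exon length only for MT3, HMA4 and PCS1. Leaving out positions with a second match could move no value, since only MT1A, listed at 0, had such positions. The shortest annotated transcript was an alternative added after the data were seen. It gave 110 RPKM for MT2A, 144 for MT3, 8.77 for HMA2, 39.0 for HMA4 and 43.9 for PCS1. Used for all genes at once, it left their order as it was. HMA4 at this length would lie above PCS1 at its listed 38.2 RPKM, so the order of these genes depends on the lengths used. The ratio of MT1C to MT1A gave no value, since MT1A was listed at 0.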

Other observations

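MT1A was 1 of 12 protein-coding nuclear genes whose exon bases all lay in exons of other listed genes on the same strand. Of these 12, 7 (58.3%) were listed at 0, and the highest had 15.4 RPKM. Where all exon bases overlapped exons on the opposite strand only, 50 of 200 genes (25%) were listed at 0. Among 6054 genes with part of their exon bases overlapped on either strand, 183 (3.02%) were listed at 0, and among the 19912 genes with no overlapped exon base, 2461 (12.4%) were. The classes differ in strand as well as in the extent of overlap, so they form no ordered scale. Whether overlap led to the values of 0 was not tested. These shares are given as a description. Besides MT1A, the genes at 0 included CIB1, a transcription factor that binds the photoreceptor cryptochrome, chosen for mention after its value was seen.

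The deposited names left 7 genes of the metal lists without a usable row. The names PAA1 and RAN1 of further metal ATPases are shared with other genes. The same holds for CCH, ZIP2, ZIP3, the names of ZIP4, and the names of GSH1, which makes a precursor of the glutathione used by PCS1. Rows under these names were not read as metal genes.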
